A study of Mus musculus with 38 samples.

Results

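Microglia of mice given ATV:DNP02, an isotype control antibody on the antibody transport vehicle (ATV), were compared with microglia of mice given vehicle solution, 1 day after a single dose. The comparison asks what dosing with an isotype antibody on the ATV does to microglial RNA, and how large a change these libraries could have missed. With Vehicle as the comparator, brain delivery, transferrin receptor binding by the ATV and antibody dosing as such cannot be told apart. It rests on the 14 libraries whose labels name these groups on day 1, out of 38 libraries in the series. The first group is ATV:DNP02 at 10 mg/kg, with 8 libraries, and the second is Vehicle, with 6 libraries. All 14 came from C57BL/6J mice aged 3 months that carried human TREM2 on an artificial chromosome (hemizygous) and, on both alleles of the mouse transferrin receptor gene, a knocked-in human part. Controls and dosed mice therefore share both alleles. Viable cells positive for the surface protein CD11b were sorted by flow cytometry after an Fc block and taken as microglia, which does not separate them from other CD11b-positive macrophages. For the region, one label names cortex and hippocampus, and another the brain minus the cerebellum. Takedown batches 1 to 4 held 2 ATV:DNP02 libraries each and 1, 2, 2 and 1 Vehicle libraries. The mice of batches 1 and 2 were female, those of batches 3 and 4 male. Replicate numbers follow label order and pair nothing, and each library is a separately labelled sample.

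The transport vehicle is a set of changes in the Fc part of an antibody that lets it bind the transferrin receptor, the iron-uptake receptor that endothelial cells of brain vessels carry in quantity. Binding there takes the antibody across the vessel wall. An antibody of the IgG class can, unless its Fc part is altered, also meet Fc receptors, which microglia and other macrophages carry, and once inside a cell it is sorted through endosomes to recycling or to lysosomes. In the resting brain, microglia express a characteristic set of genes, among them P2ry12 and Tmem119, and on exposure to a stimulus they can induce cytokines, interferon-stimulated genes and genes of the disease-associated state.

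Library depth overlapped between the groups. It averaged 2.34 ± 0.591 M counts in ATV:DNP02 libraries and 2.27 ± 0.491 M counts in Vehicle libraries (SD, n = 8 and 6), with a range of 1.65 to 3.48 M over all 14 (exact permutation test over 3003 assignments, two-sided, p = 0.820). The share of counts in mitochondrially encoded genes averaged 2.56 ± 0.858% in ATV:DNP02 libraries and 2.98 ± 0.734% in Vehicle libraries (SD, n = 8 and 6), with p = 0.354 by the same exact test. Counts in ribosomal protein genes made up 1.45 ± 0.107% in ATV:DNP02 libraries and 1.36 ± 0.0914% in Vehicle libraries (SD, n = 8 and 6) with an exact p = 0.122, which was 0.608 after adjustment over the 5 library measures compared. Without ATV:DNP02 replicate 1, the deepest library, that exact p was 0.0105 for a difference of 0.125 percentage points. The other measures were the noncoding share and the number of genes with a count, with exact p of 0.380 and 0.781. Sex-linked transcripts went against the label in 0 libraries, and 0 pairs of libraries were identical. A value of 0 CPM (counts per 1000000) in a library allows a level of up to 0.822 to 1.84 CPM at these depths, by a limit of 3 counts that covers counting error only. The p-values and intervals below rest on the spread between the libraries of each fit, which may be partly technical. In limma-voom that spread is weighted by the expected precision of each value and moderated across genes. Where some libraries have values near 0, its SE can be far smaller than the plain spread between replicates.

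No gene passed the test for a difference between ATV:DNP02 and Vehicle. Of 9316 genes with enough counts to be tested, 0 were called higher (0%) and 0 lower (0%) at an adjusted p under 0.05 (limma-voom with batch as a term, Benjamini-Hochberg). At an unadjusted p under 0.05 there were 151 genes with a higher value (1.62%) and 242 with a lower value (2.6%) in ATV:DNP02 microglia, together 393 (4.22%). The quasi-likelihood test of edgeR also called 0 genes, with 251 at an unadjusted p under 0.05. DESeq2 called 1 gene, Car2, which encodes a carbonic anhydrase, with 381 genes at an unadjusted p under 0.05. Car2 averaged 2.09 ± 2.83 CPM in ATV:DNP02 microglia and 10.0 ± 5.74 CPM in Vehicle microglia (SD, n = 8 and 6), a log2 difference of -4.63 with an adjusted p of 0.00962 in DESeq2 and of -2.54 ± 0.73 (SE) with an adjusted p of 0.998 in limma-voom. Estimates were centred on no change, with 4663 genes above 0 and 4653 below it. The log2 difference exceeded 1 in either direction in 376 genes, of which 321 were in the quartile of genes with the lowest expression, below 9.06 CPM. Only 1 gene (0.0107%) had no overlap between the groups with ATV:DNP02 above Vehicle, and 0 genes (0%) had none with ATV:DNP02 below. That gene was Cox7a2l, which encodes a factor of respiratory chain supercomplexes. It averaged 74.2 ± 8.61 CPM in ATV:DNP02 microglia and 56.7 ± 6.02 CPM in Vehicle microglia (SD, n = 8 and 6), a log2 difference of 0.37 ± 0.18 (SE) with an adjusted p of 0.998.

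**Figure D1:**
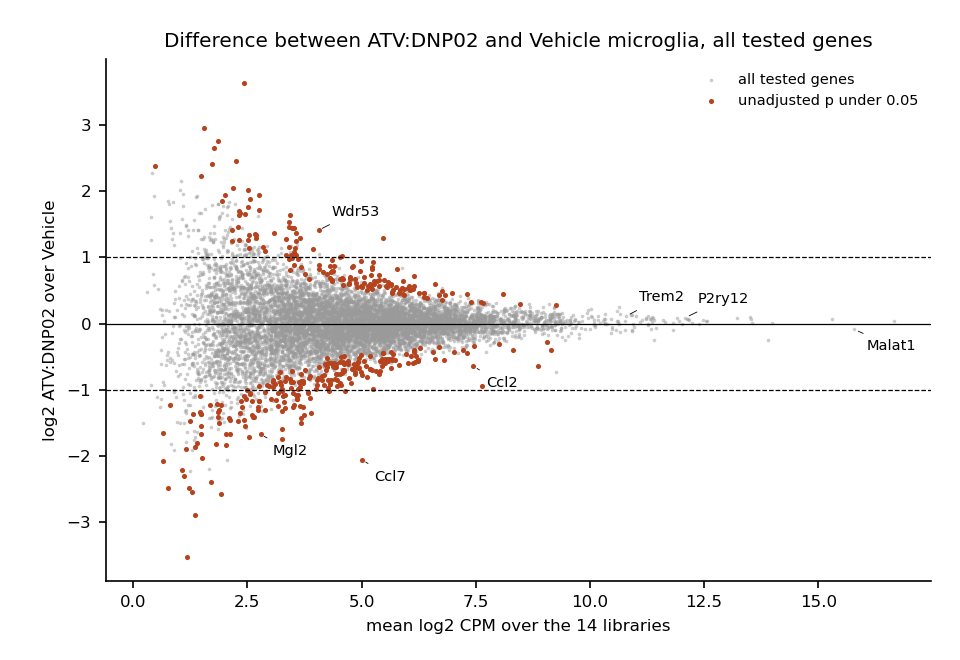
Each point is 1 of the 9316 tested genes, with the mean log2 CPM over the 14 libraries on the x axis and the log2 difference of ATV:DNP02 over Vehicle on the y axis. Red points are the 393 genes at an unadjusted p under 0.05, dashed lines mark 2-fold, and the spread narrows from left to right: 321 of the 376 genes beyond 2-fold lie in the lowest quartile of expression.

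Because no gene was called, the size of change that the data leave room for was measured. A gene is said here to be bounded within a given fold when both one-sided tests, against an increase and against a decrease of that fold, passed at an adjusted p under 0.05. A change of 2-fold or more in either direction was bounded out in this way for 5275 of 9316 genes (56.6%), and one of 1.5-fold or more for 841 genes (9.03%). Simple 95% intervals lay within 2-fold for 5141 genes (55.2%). The bound followed expression, and deposited counts of 100 or more carry a rounding error of up to 5% that these intervals include only as spread. In the highest quartile of genes, above 57.2 CPM, 98.9% were bounded within 2-fold and 36% within 1.5-fold, and the median half-width of the 95% interval was 0.38 on the log2 scale, a factor of 1.30. In the third and second quartiles 86.2% and 39.7% were bounded within 2-fold, with median half-widths of 0.56 and 0.81. In the lowest quartile the half-width was 1.36, a factor of 2.56, and 1.63% of genes were bounded within 2-fold. At wider folds, chosen after the values were seen, 7753 genes (83.2%) were bounded within 3-fold, 8537 (91.6%) within 4-fold and 9167 (98.4%) within 8-fold, while 0 were bounded within 1.25-fold. The count at 2-fold stayed between 4269 and 5290 when any one library was left out. The count at 1.5-fold did not hold, since it was between 1 and 623 without one library, with 1 gene left without Vehicle replicate 1 or Vehicle replicate 3.

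**Figure D2:**
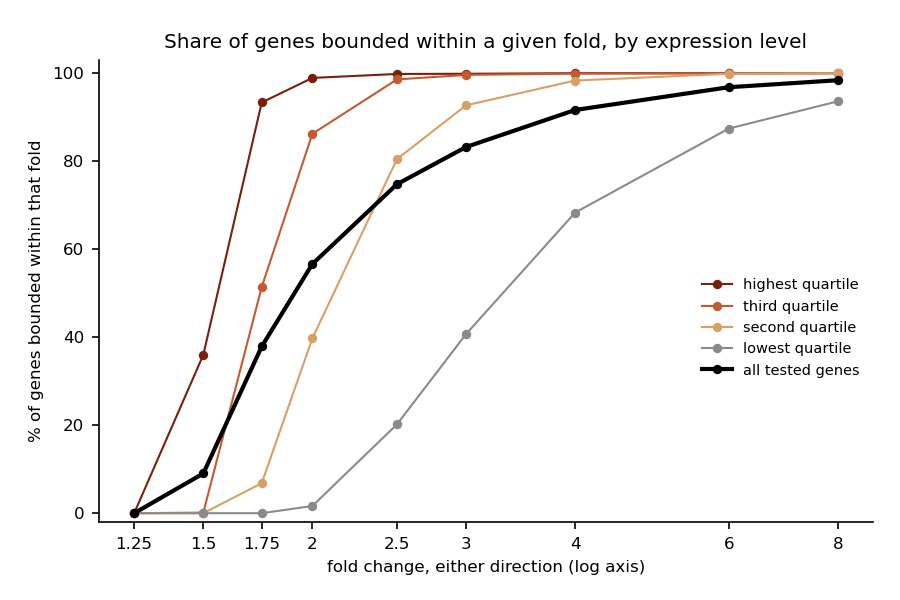
The y axis gives the percentage of tested genes bounded within the fold on the x axis (log scale, either direction), for all 9316 genes (black) and for each quartile of expression (2329 genes each). At 2-fold the quartiles stand at 98.9%, 86.2%, 39.7% and 1.63%, from the highest expression to the lowest.

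Mgl2 had an adjusted p of 0.0792 with lower values in ATV:DNP02 microglia. Mgl2, at chr11:70130329-70137550 (build GRCm38), encodes a galactose-binding C-type lectin of macrophages and dendritic cells. Its lowest, median and highest values were 0, 4.30 and 45.5 CPM in ATV:DNP02 microglia, against 0, 36.8 and 79.8 CPM in Vehicle microglia. In such sorted bulk samples fewer cells of a type and less RNA per cell cannot be told apart. The groups overlapped, with 4 ATV:DNP02 libraries of batches 3 and 4 and the 1 Vehicle library of batch 4 at or near 0. The log2 difference was -1.67 ± 0.31 (SE), and the differences within batches 1 to 4 were -1.62, -1.09, -6.42 and 2.00. The SD of log2 CPM within groups was 3.09, so this SE does not show that replicates lay close together. The unadjusted p of Mgl2 was 1.47e-05 in limma-voom, and 0.225 without the batch term. Without ATV:DNP02 replicate 4 the gene was called, with a log2 difference of -1.92 and an adjusted p of 0.0253, and its adjusted p ranged up to 1.00 over the 27 alternatives that tested it (limma-voom, edgeR and DESeq2).

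The other genes described here with lower values had adjusted p of 0.482 or more. Nmnat1, which makes NAD in the nucleus, averaged 4.47 ± 2.93 CPM in ATV:DNP02 microglia and 14.1 ± 5.56 CPM in Vehicle microglia (SD, n = 8 and 6), with the same sign in 4 of 4 batches. Rbm12b2, which encodes a protein with RNA-binding motifs, averaged 12.3 ± 8.33 CPM in ATV:DNP02 microglia and 26.1 ± 9.91 CPM in Vehicle microglia, likewise with 1 sign in 4 of 4 batches. The log2 differences of these genes were -1.71 ± 0.40 and -1.34 ± 0.32 (SE). Ddx51, an RNA helicase, Usp36, a nucleolar deubiquitinase, and Ntsr2, a neurotensin receptor, had log2 differences of -2.20 ± 0.52, -1.73 ± 0.43 and -2.30 ± 0.57 (SE). Their adjusted p-values in limma-voom were 0.482, 0.533 and 0.533.

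Among the genes with higher values in ATV:DNP02 microglia, the lowest p-value was that of Wdr53 at chr16:32247227-32257083, which encodes a WD-repeat protein. It had 11.9, 26.9 and 42.4 CPM in ATV:DNP02 microglia, against 4.97, 11.3 and 16.5 CPM in Vehicle microglia (lowest, median, highest). The ranges overlapped, with 1 ATV:DNP02 library of batch 3 below the highest Vehicle library and the others above it. Its log2 difference of 1.41 ± 0.38 (SE) had 1 sign in 4 of 4 batches, with an adjusted p of 0.839. RP23-446P16.2, a protein-coding gene at chr9:50762828-50775520 that the files list under a clone name, had 60.3, 91.4 and 104 CPM in ATV:DNP02 microglia, against 34.6, 57.7 and 65 CPM in Vehicle microglia. There the lowest ATV:DNP02 library lay below 3 of the Vehicle libraries and the other ATV:DNP02 libraries lay above all 6. The log2 difference was 0.72 ± 0.20 (SE) with an adjusted p of 0.896. Mtmr6, a phosphoinositide phosphatase, had a log2 difference of 0.82 ± 0.25 (SE). Phf8, a histone demethylase, Creb5, a transcription factor, Zmat1, a zinc finger protein, Pltp, which transfers phospholipids between lipoproteins, and Plekho2, a protein with a pleckstrin homology domain, had log2 differences of 2.01, 2.76, 1.45, 1.04 and 0.95. All 6 had an adjusted p of 0.998 in limma-voom, and in all 6 the difference in batch 4 had the other sign, for Plekho2 also in batch 1.

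**Figure D3:**
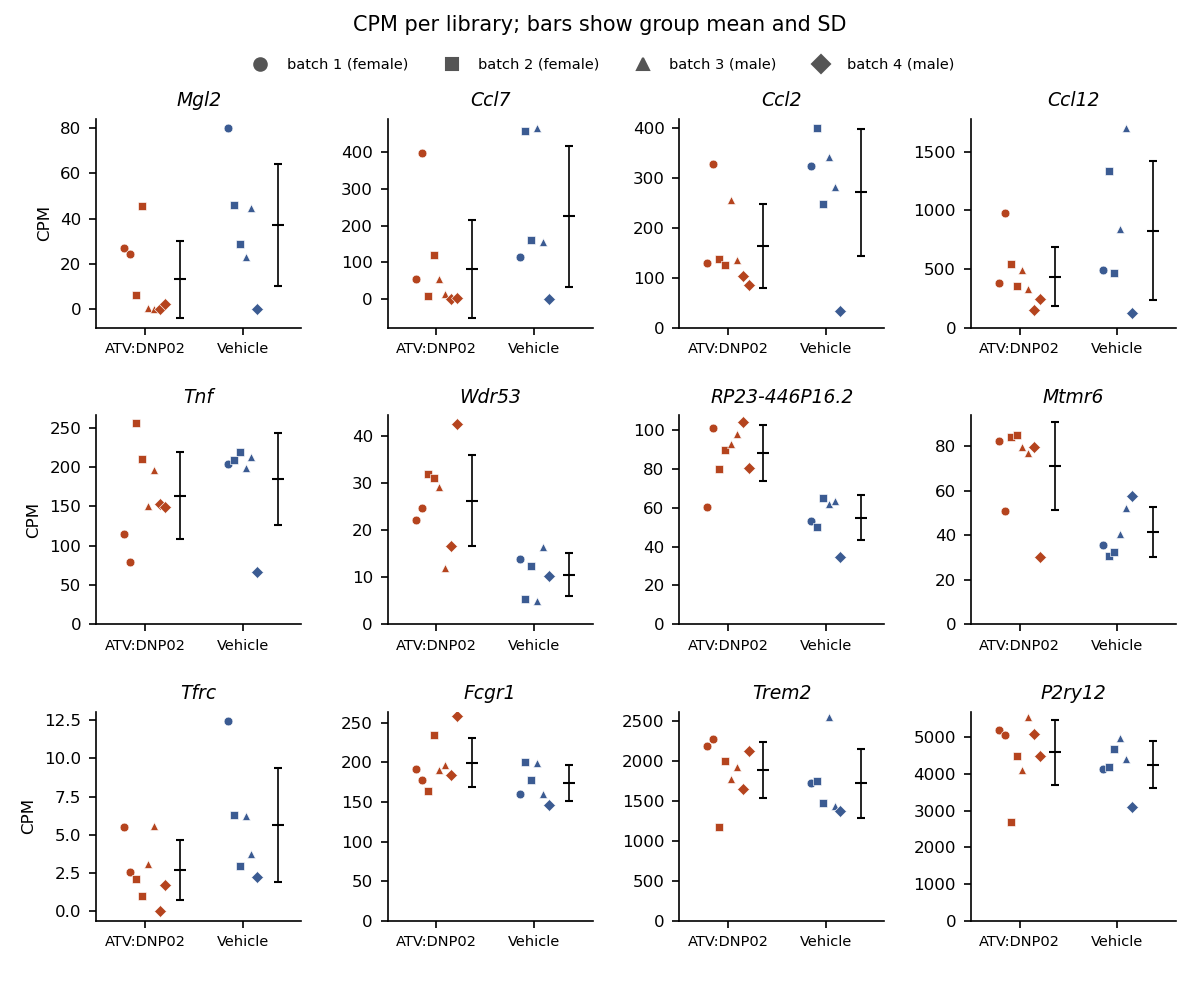
CPM on the y axis for 12 genes, with 1 point per library (8 ATV:DNP02 in red on the left of each panel, 6 Vehicle in blue on the right), the marker shape giving the takedown batch and the black bar the group mean and SD. The groups overlap in all 12 panels, and the Vehicle library of batch 4 is the lowest Vehicle library for Mgl2, Ccl7, Ccl2, Ccl12 and Tnf.

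Of 40 tested members of the list of inflammatory cytokines and NF-kB targets, 3 chemokine genes had an unadjusted p under 0.05. Of all tested genes 4.22% did so by limma-voom, and no member of the list passed the test. Ccl2, Ccl7 and Ccl12 lie in the same region of chromosome 11 (chr11:82035571-82037453, chr11:82045712-82047525 and chr11:82101845-82103400) and encode ligands of the monocyte receptor CCR2. Ccl7 had 0, 32.9 and 398 CPM in ATV:DNP02 microglia, against 0, 157 and 466 CPM in Vehicle microglia (lowest, median, highest). One ATV:DNP02 library, replicate 2, was close to the highest Vehicle libraries, and the Vehicle library of batch 4 was at 0. The log2 difference of Ccl7 was -2.06 ± 0.49 (SE) with an unadjusted p of 0.000311 and an adjusted p of 0.482 in limma-voom, and the differences within batches 1 to 4 were 0.36, -3.07, -3.35 and 1.82. Leaving out ATV:DNP02 replicate 2 or Vehicle replicate 1 brought the adjusted p of Ccl7 to 0.00774 and 0.0248, and the males alone gave a log2 difference of -3.41 with an adjusted p of 0.00649. The unadjusted p of Ccl7 was 0.318 in limma-voom without the batch term and 0.105 with DESeq2. Over the 28 alternatives its adjusted p ranged from 0.00649 to 1.00 (limma-voom, edgeR and DESeq2). Ccl2 averaged 163 ± 84.2 CPM in ATV:DNP02 microglia and 272 ± 128 CPM in Vehicle microglia (SD, n = 8 and 6), and Ccl12 averaged 434 ± 253 CPM in ATV:DNP02 microglia and 826 ± 593 CPM in Vehicle microglia. Their log2 differences were -0.64 (95% interval -1.13 to -0.15) and -0.64 (95% interval -1.20 to -0.08), with unadjusted p of 0.0122 and 0.0279 and an adjusted p of 0.998 for both. In batch 4 the sign was the other way for all 3 genes, and in batch 1 for Ccl7 and Ccl12. Ccl8, which lies next to Ccl12 at chr11:82115185-82116799 and was named after its values were seen, had a log2 difference above 0, at 1.57 ± 1.59 (SE). It averaged 30.5 ± 63.0 CPM in ATV:DNP02 microglia and 6.86 ± 12.0 CPM in Vehicle microglia, and without ATV:DNP02 replicate 1 it was called higher with an adjusted p of 0.00225, against 0.998 with all 14 libraries.

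Fc receptor genes had small differences between the groups. The study describes its TREM2 antibodies on this vehicle as carrying Fc changes that lower Fc receptor binding. All 10 tested members of the list of Fc receptors and IgG handling genes, of 12 listed, were bounded within 2-fold, and 5 within 1.5-fold. The list has a median level of 255 CPM, and 98.9% of genes in the highest quartile of expression were bounded within 2-fold as well. The median log2 difference of the list was 0.03, beside 0.00 for all genes. Fcgr1, the high-affinity IgG receptor, had 164, 191 and 258 CPM in ATV:DNP02 microglia, against 146, 168 and 200.3 CPM in Vehicle microglia (lowest, median, highest). The group ranges overlapped, with ATV:DNP02 replicates 4 and 8 above the highest Vehicle library. Fcgr1 had a log2 difference of 0.20 (95% interval -0.12 to 0.51) and the lowest p-value of the list, 0.208 unadjusted in limma-voom. Fcgr3, a low-affinity activating receptor, differed by 0.09 (95% interval -0.16 to 0.34), and Fcgr2b, the inhibitory receptor, by 0.02 (95% interval -0.25 to 0.30). Fcgrt, which encodes the neonatal Fc receptor that returns IgG from endosomes to the surface, differed by -0.02 (95% interval -0.44 to 0.39). Fcer1g, the signalling chain shared by activating Fc receptors, differed by 0.04 (95% interval -0.20 to 0.28).

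Tfrc, the transferrin receptor that the vehicle binds, had too few counts to pass the filter in sorted microglia, with 57 counts over 8 ATV:DNP02 libraries and 80 over 6 Vehicle libraries. It had 0, 2.32 and 5.55 CPM in ATV:DNP02 microglia, against 2.22, 4.97 and 12.4 CPM in Vehicle microglia (lowest, median, highest). The groups overlapped, with the highest value in the Vehicle library of batch 1. Means were 2.68 ± 1.98 CPM in ATV:DNP02 and 5.63 ± 3.72 CPM in Vehicle microglia (SD, n = 8 and 6; exact permutation test, two-sided, p = 0.0616, adjusted over the 3 panel genes below the filter 0.185). This exact test was chosen after the data were seen. Fitted without the filter, its log2 difference was -1.15 (95% interval -2.14 to -0.17) with an adjusted p of 0.980 in limma-voom. The other 2 of these genes were Isg15 and C3, with 77 and 13 counts in ATV:DNP02 and 37 and 6 in Vehicle libraries, and exact p of 0.316 and 0.524. Iron handling genes behind the receptor gave a median log2 difference of -0.03 over 23 tested members, of which 16 were bounded within 2-fold. That is 69.6% of the tested members, at a median level of 56.9 CPM. In the third and highest quartiles of expression, 86.2% and 98.9% of all genes were bounded within 2-fold. Ferritin heavy chain Fth1 had 5042, 5854 and 7232 CPM in ATV:DNP02 microglia, against 4261, 5550.2 and 6678 CPM in Vehicle microglia, a log2 difference of 0.06 (95% interval -0.16 to 0.27). The light chain Ftl1 differed by 0.26 (95% interval -0.10 to 0.63), the iron exporter Slc40a1 by 0.05 (95% interval -0.35 to 0.45) and heme oxygenase Hmox1 by 0.51 (95% interval -0.17 to 1.20). The lowest unadjusted p in the list was that of Ncoa4, the receptor for ferritin breakdown, at 0.0704, with 3.35 ± 3.11 CPM in ATV:DNP02 microglia and 9.56 ± 6.42 CPM in Vehicle microglia.

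The route of an internalized antibody was covered by lists of endocytosis and lysosome genes. Of 32 tested genes of endocytosis and recycling, 28 were bounded within 2-fold and the median log2 difference was 0.10. One member, the recycling factor Snx27, had an unadjusted p under 0.05, at 0.0499, with 16.0 ± 5.03 CPM in ATV:DNP02 microglia and 23.3 ± 6.95 CPM in Vehicle microglia and an adjusted p of 0.998. Of 45 tested lysosomal genes, 43 were bounded within 2-fold and 20 within 1.5-fold, with a median of 0.05. By limma-voom 0 members had an unadjusted p under 0.05, beside 4.22% of all genes. The endocytosis and lysosome lists have median levels of 86.8 and 185 CPM. In the highest quartile of expression, 98.9% of all genes were bounded within 2-fold. Among the abundant ones, the cathepsin gene Ctsd differed by 0.04 (95% interval -0.33 to 0.40), Ctsb by 0.09 (95% interval -0.23 to 0.41), Cd68, which encodes a lysosomal membrane glycoprotein, by 0.03 (95% interval -0.25 to 0.32) and Lamp1 by -0.09 (95% interval -0.37 to 0.18).

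Genes of the homeostatic microglial state lay close to no change. All 39 tested members were bounded within 2-fold and 28 within 1.5-fold, and their median log2 difference was 0.02. The list has a median level of 767 CPM, and such bounds follow expression. In the highest quartile of expression, 98.9% of all genes were bounded within 2-fold and 36% within 1.5-fold. The purinergic receptor gene P2ry12 had 2689, 4780.3 and 5545 CPM in ATV:DNP02 microglia, against 3107, 4292 and 4971 CPM in Vehicle microglia (lowest, median, highest). The lowest library was an ATV:DNP02 library of batch 2, and the remaining ranges overlapped. Its log2 difference was 0.09 (95% interval -0.17 to 0.36). The fractalkine receptor gene Cx3cr1 differed by 0.02 (95% interval -0.22 to 0.25), the colony-stimulating factor receptor gene Csf1r by 0.04 (95% interval -0.22 to 0.31), Siglech by 0.12 (95% interval -0.11 to 0.35) and Tmem119 by 0.11 (95% interval -0.30 to 0.52). Mouse Trem2 had 1176, 1959 and 2278 CPM in ATV:DNP02 microglia, against 1376, 1603 and 2548 CPM in Vehicle microglia, a log2 difference of 0.12 (95% interval -0.17 to 0.40). These counts are of the mouse gene, and human TREM2 was not analysed here. Tyrobp, the adaptor through which TREM2 signals, differed by 0.07 (95% interval -0.14 to 0.28). Over 25 tested genes of the TREM2 pathway the median was 0.02, with 20 bounded within 2-fold. That list has a median level of 62.3 CPM, also in the highest quartile, so its share was below 98.9%. The members at an unadjusted p under 0.05 were Malt1, a signalling scaffold for NF-kB, at 0.97 ± 0.43 (SE), and Rictor, a subunit of mTOR complex 2, at -0.76 ± 0.36, both with an adjusted p of 0.998 in limma-voom. Of all tested genes, 4.22% had an unadjusted p under 0.05. In the homeostatic list that held for 1 gene, Bin1, a membrane-bending adaptor. It had 420.2, 486 and 631 CPM in ATV:DNP02 microglia, against 531, 576 and 666 CPM in Vehicle microglia, lower in 4 of 4 batches, a log2 difference of -0.27 ± 0.11 (SE) with an adjusted p of 0.998 in limma-voom. The unadjusted p of Bin1 was 0.0263.

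Inflammatory and interferon genes gave no called member, as held for all 9316 genes. Their bounds were wider than those of the homeostatic list, and their median levels were lower, at 93.4 and 15.2 CPM against 767 CPM. Of all tested genes, 56.6% were bounded within 2-fold and 4.22% had an unadjusted p under 0.05 by limma-voom. Of 40 tested cytokines and NF-kB targets, 27 were bounded within 2-fold, the median log2 difference was -0.02, and the 3 members at an unadjusted p under 0.05 were Ccl7, Ccl2 and Ccl12, with 18 of 40 estimates above 0. The cytokine gene Tnf had 79.6, 152 and 256 CPM in ATV:DNP02 microglia, against 66.6, 206 and 219 CPM in Vehicle microglia (lowest, median, highest). One Vehicle library, of batch 4, was far below the other Vehicle libraries, and the log2 difference was -0.05 (95% interval -0.47 to 0.37). Il1b differed by 0.34 (95% interval -0.42 to 1.11), Ccl3 by -0.06 (95% interval -0.38 to 0.27) and Ccl4 by -0.01 (95% interval -0.32 to 0.30). Of 43 tested interferon-stimulated genes, 23 were bounded within 2-fold and the median was -0.02. That median had no stable sign: it was above 0 in 10 of 28 alternatives, with a range from -0.41 to 0.31, and it was 0.48, -0.01, -0.26 and -1.25 within batches 1 to 4. Estimates were below 0 for 22 of 43 genes in limma-voom and for 33 of 43 with edgeR or DESeq2. Ifi27l2a had the lowest p-value of that list. Its values were 7.97, 43.4 and 195 CPM in ATV:DNP02 microglia, against 14.6, 32.0 and 111 CPM in Vehicle microglia, a log2 difference of 1.30 ± 0.48 (SE) with an adjusted p of 0.998. Within batches 1 to 4 the Ifi27l2a differences were 2.27, 2.76, 0.18 and -2.49, and in males alone the sign turned, at -0.87. Ifit3 differed by 0.54 (95% interval -0.39 to 1.46) in limma-voom, and its sign depended on the method. Within batches 1 to 4 the Ifit3 differences were 1.86, -0.30, -4.07 and -6.40. The estimate for Ifit3 was -1.80 with edgeR, -2.23 with DESeq2, -1.54 with limma-trend and -1.62 without the batch term on the same 14 libraries, below 0 in 9 of 27 alternatives. In males alone Ifit3 was at -4.98, and in females alone at 1.25. Bst2 differed by -0.12 (95% interval -0.52 to 0.28).

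Antigen presentation and the disease-associated state gave no called member either. The class I list had a median of 0.00 over 20 tested genes, 15 of them bounded within 2-fold. Psmb9, a subunit of the immunoproteasome, had 98.1, 121 and 166 CPM in ATV:DNP02 microglia, against 75.5, 84.6 and 109 CPM in Vehicle microglia (lowest, median, highest). All ATV:DNP02 libraries but 1 of batch 4 lay above the highest Vehicle library. The log2 difference of 0.50 ± 0.17 (SE) had 1 sign in 4 of 4 batches, and the adjusted p was 0.998 (unadjusted p = 0.00746, limma-voom). The class II list had a median of -0.21 over 13 tested genes, with 10 estimates below 0 and 8 genes bounded within 2-fold. Its median turned sign without Vehicle replicate 5, to 0.02, and in females alone, to 0.13. Cd74, the invariant chain of class II molecules, had 14.7, 196 and 506 CPM in ATV:DNP02 microglia, against 109, 319 and 850.0 CPM in Vehicle microglia. Vehicle replicate 5 held the highest value, and the log2 difference was -0.94 (95% interval -1.84 to -0.03) with an unadjusted p of 0.0430 and an adjusted p of 0.998. In males alone Cd74 was at -2.38 and in females alone at 0.15, a difference between the sexes with an adjusted p of 0.910 in limma-voom. Of 29 tested genes of the disease-associated state, 21 were bounded within 2-fold, with a median of 0.06. Apoe, the main lipid carrier of the brain, had 490.3, 1443 and 6148 CPM in ATV:DNP02 microglia, against 373, 2024 and 2172 CPM in Vehicle microglia, a log2 difference of 0.20 (95% interval -0.28 to 0.67). The scarcer members were loosely bounded. The lipoprotein lipase gene Lpl differed by -1.30 (95% interval -4.72 to 2.11) and Cst7, which encodes a cystatin, by -0.68 (95% interval -1.46 to 0.09). Over 11 tested complement genes the median was 0.03, and 9 were bounded within 2-fold. Median levels of the class I, class II, disease-associated and complement lists were 124, 77.2, 462 and 263 CPM. Their shares bounded within 2-fold were 75%, 61.5%, 72.4% and 81.8%. Each share was below the 98.9% of all genes in the highest quartile of expression.

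The difference between DNL919, the TREM2-binding antibody on the same vehicle, and ATV:DNP02 on day 1 gives a scale for these bounds. Both differences use the same ATV:DNP02 libraries, so they are not independent, and their values are given side by side only. The DNL919 values come from a fit of all 38 libraries and the ATV:DNP02 over Vehicle values from the fit of 14. Cxcl10, an interferon-induced chemokine gene, had log2 differences of -0.46 ± 0.45 (SE) for ATV:DNP02 over Vehicle and 8.33 ± 0.77 for DNL919 over ATV:DNP02. For Ccl12 these values were -0.64 ± 0.27 and 6.10 ± 0.39, for Tnf -0.05 ± 0.21 and 3.54 ± 0.22, for Bst2 -0.12 ± 0.20 and 2.52 ± 0.23, and for the replication helicase gene Mcm6 -0.80 ± 0.38 and 4.19 ± 0.38. P2ry12 had 0.09 ± 0.13 and -1.50 ± 0.17, and Fcgr3 0.09 ± 0.12 and -1.11 ± 0.17. The gene with the widest interval in the panel, Lpl, had -1.30 ± 1.66 and 6.01 ± 0.77. These genes were named from those with a DNL919 difference beyond 1 in either direction, 22 of the 37 tested panel genes. Others in the panel hardly differed, such as Ctsd and C1qa, with DNL919 differences of 0.01 ± 0.23 and 0.05 ± 0.13 (SE). Of the 40 panel genes 37 were tested, 24 were bounded within 2-fold and 14 within 1.5-fold, beside 56.6% and 9.03% of all genes. By limma-voom 4 had an unadjusted p under 0.05 (Ccl2, Ccl12, Cd74 and Mcm6), beside 4.22% of all genes, and 0 were called. All 4 were lower in ATV:DNP02 microglia.

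**Figure D4:**
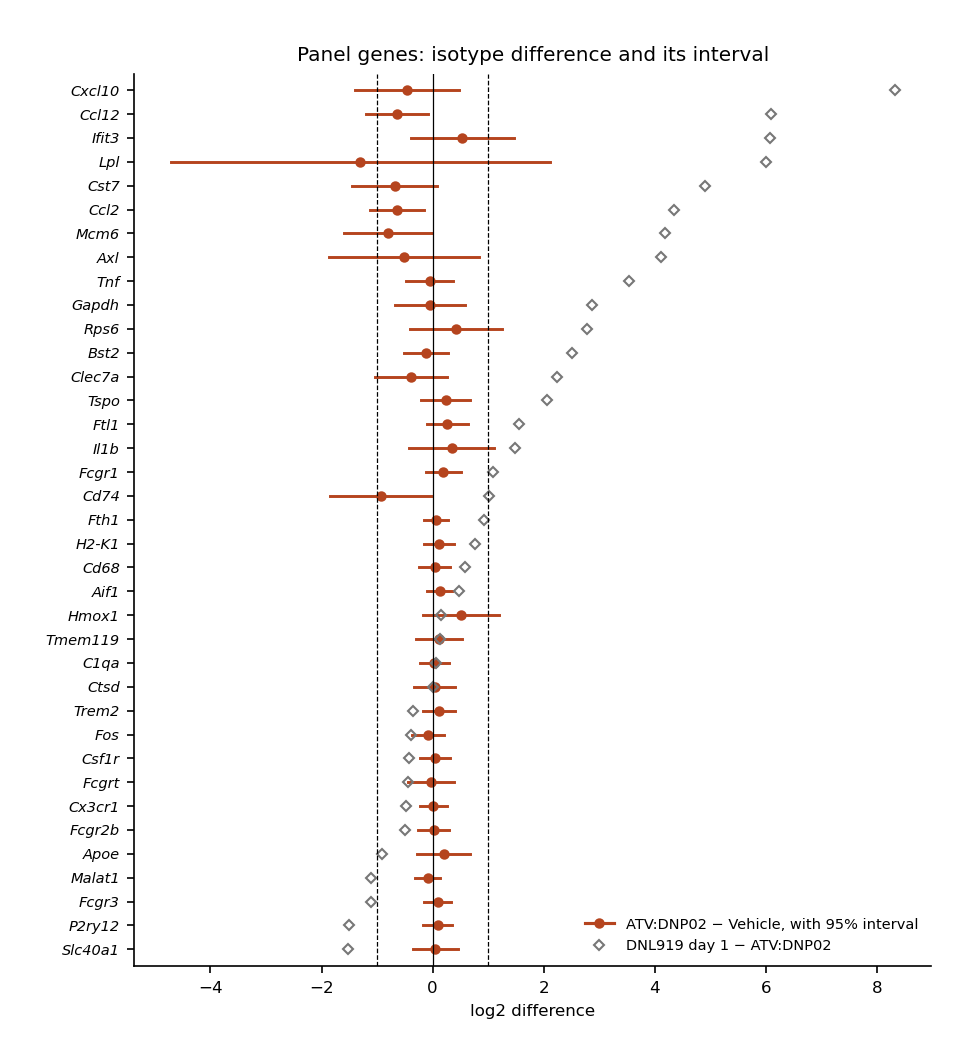
Log2 differences on the x axis for the 37 tested panel genes, with the ATV:DNP02 over Vehicle estimate and its 95% interval (red point and line) and the DNL919 day 1 over ATV:DNP02 difference from a fit of all 38 libraries (grey diamond), ordered by the diamond. Red estimates lie between -1.30 (Lpl) and 0.54 (Ifit3), while the diamonds reach 8.33 (Cxcl10).

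Estimates for ribosomal protein genes, which build the translation machinery, were mostly above 0 and small. Of 77 tested cytosolic ribosomal protein genes, 66 had an estimate above 0 and 73 were bounded within 2-fold, with a median log2 difference of 0.10. The median stayed above 0 in 28 of 28 alternatives, between 0.08 and 0.16, and the medians within batches 1 to 4 were -0.05, 0.14, 0.07 and 0.25. Such genes share each library's scaling and RNA quality and are not independent of one another. Nuclear genes of oxidative phosphorylation had a median of 0.06, with 54 of 72 estimates above 0 and all 72 bounded within 2-fold. That median turned sign in females alone, to -0.03. Ndufv2, a complex I subunit gene, differed by 0.31 (95% interval 0.02 to 0.60), and Ndufb2, another, by 0.44 (95% interval 0.03 to 0.86). These were the 2 of 72 members at an unadjusted p under 0.05 by limma-voom, beside 4.22% of all genes, and 0 were called. The lowest estimate was that of Ndufv1, at -0.37. The 6 tested mitochondrially encoded genes had a median of -0.09, all bounded within 2-fold. Median levels of these 3 lists were 134, 170 and 1047 CPM, and 98.9% of all genes in the highest quartile of expression were bounded within 2-fold. Glycolysis genes had a median of -0.02 over 19 tested members.

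DNA replication was poorly covered, with 16 of 51 listed genes tested, a median log2 difference of -0.09 and 6 genes bounded within 2-fold. The list has a median level of 8.18 CPM. Of all tested genes 56.6% were bounded within 2-fold, and of those in the lowest quartile of expression 1.63%. Mcm6 averaged 7.67 ± 4.75 CPM in ATV:DNP02 microglia and 14.0 ± 6.78 CPM in Vehicle microglia (SD, n = 8 and 6), lower in 4 of 4 batches, with an unadjusted p of 0.0469 and an adjusted p of 0.998 in limma-voom. Pcna, the sliding clamp of DNA polymerase, differed by -0.04 (95% interval -0.49 to 0.42). Immediate early genes, which tissue dissociation induces, had a median of -0.01 over 33 tested members. At a median level of 489 CPM, 31 of them were bounded within 2-fold, beside 98.9% of all genes in the highest quartile. Fos had 1663, 2515 and 4108 CPM in ATV:DNP02 microglia, against 1831, 2563 and 4349.7 CPM in Vehicle microglia (lowest, median, highest) with overlap over most of both ranges, and a log2 difference of -0.08 (95% interval -0.37 to 0.21). Targets of the stress factor ATF4 and of ER stress had a median of -0.06 over 22 tested genes, and the cholesterol and lipid efflux list one of 0.16 over 15. The cholesterol median lay between -0.07 and 0.15 without one library, and below 0 in 5 of 28 alternatives (males alone, and without ATV:DNP02 replicate 3 or 6 or Vehicle replicate 2 or 3). The lowest unadjusted p in these was that of Abcg1, a cholesterol exporter, at 0.0651, with 73.5 ± 13.5 CPM in ATV:DNP02 microglia and 105 ± 34.9 CPM in Vehicle microglia, and Slc7a11, the cystine transporter, at 0.0719, with 3.74 ± 5.25 CPM in ATV:DNP02 microglia and 13.2 ± 11.2 CPM in Vehicle microglia.

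**Figure D5:**
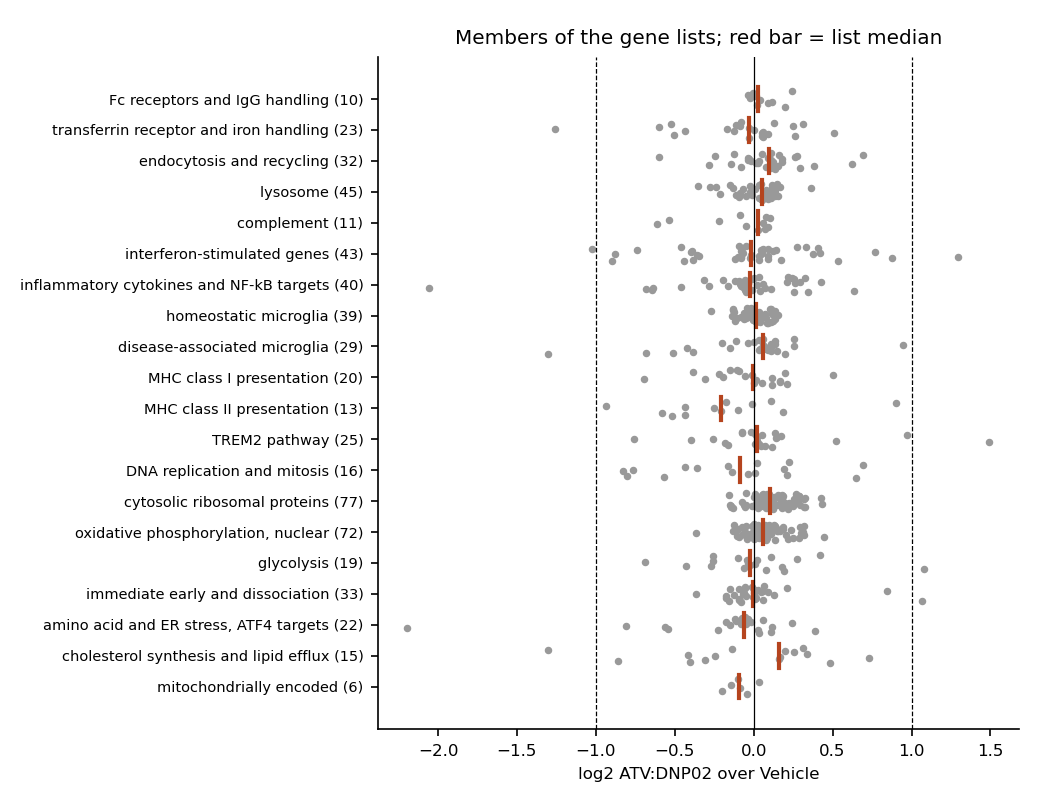
Each grey point is a tested gene of the list named on the y axis (number tested in parentheses), its x position the log2 difference of ATV:DNP02 over Vehicle, and the red bar is the list's median. Medians run from -0.21 (MHC class II presentation, above 0 in 2 of 28) to 0.16 (cholesterol synthesis and lipid efflux, below 0 in 5 of 28 alternatives), and dashed lines mark 2-fold.

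Of the tested markers of other cell types, 0 had an unadjusted p under 0.05 in limma-voom, beside 4.22% of all genes. Each of these cell types had at most 14 tested markers, too few to tell 0 from that share. Several of these lists were also loosely bounded, so the count of 0 does not show that cell composition was equal. The 11 microglial markers in the files were all tested, with a median log2 difference of 0.04, and their summed level had a lowest, median and highest value of 16609.5, 22528 and 27074 CPM in ATV:DNP02 microglia, against 17807, 21669 and 24498 CPM in Vehicle microglia. Of 15 markers of border-associated macrophages, which also carry CD11b, 14 were tested, and their median was 0.35, with 11 of 14 estimates above 0, 4 bounded within 2-fold and 0 at an unadjusted p under 0.05 by limma-voom. Without one library their median lay between 0.08 (without Vehicle replicate 4) and 0.65 (without ATV:DNP02 replicate 6). Their summed level had a lowest, median and highest value of 311, 612 and 1623 CPM in ATV:DNP02 microglia, against 357, 579 and 889 CPM in Vehicle microglia. Cbr2, the marker with the lowest p-value (0.0801 unadjusted), averaged 59.7 ± 52.8 CPM in ATV:DNP02 microglia and 37.5 ± 28.1 CPM in Vehicle microglia. Whether these cells have a part in the values of Mgl2, Ccl7 and Ccl8, genes that macrophages outside the parenchyma can express, was not tested. Monocyte markers passed the filter for 6 of 12, with summed levels of 3.68, 149 and 315 CPM in ATV:DNP02 microglia, against 24.2, 91.8 and 295 CPM in Vehicle microglia and 0 of them bounded within 2-fold. The 6 tested astrocyte markers had a median of -0.31 and 5 estimates below 0, and their summed levels were 318, 436 and 574 CPM in ATV:DNP02 microglia, against 366, 556 and 608 CPM in Vehicle microglia. The 6 oligodendrocyte markers had a median of 0.01, the 5 neuronal ones -0.12, the 4 endothelial ones 0.11 and the 3 B cell ones 0.17. Csf3r, a gene that microglia express too, was the only neutrophil marker tested, and Gp9 the only one of red cells and platelets. Markers of T and NK cells, mural cells and oligodendrocyte precursors had 0 tested members, with median summed levels of 1.45, 13.6 and 6.06 CPM in ATV:DNP02 and 1.06, 8.67 and 4.75 CPM in Vehicle microglia.

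The difference between ATV:DNP02 and Vehicle was itself compared between the sexes, which cannot be told apart from the pairs of batches. For 0 of 9316 genes (0%) did it differ between males and females at an adjusted p under 0.05 (interaction term in limma-voom), the smallest adjusted p being 0.910, and 474 genes (5.09%) did so at an unadjusted p under 0.05. The same test in edgeR called 0 genes, with 408 at an unadjusted p under 0.05. DESeq2 called 1, Ly6c2, a monocyte marker, with 580 genes at an unadjusted p under 0.05. Ly6c2 averaged 13.4 ± 15.8 CPM in ATV:DNP02 microglia and 20.8 ± 39.2 CPM in Vehicle microglia (SD, n = 8 and 6), with a spread beyond its mean in both groups. Within one sex, 2428 genes in females and 1742 in males were bounded within 2-fold, each with 7 libraries.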

How the data were processed

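The members, lists and tests were chosen with earlier results of these data known. RNA of sorted cells was made into 3-prime-biased libraries by template switching. The authors aligned reads with STAR to GRCm38 and counted them per gene with featureCounts of Subread 1.6.2. The values used are the counts they deposited, with library annotation in the same workbook. Deposited counts of 100 or more are rounded to 2 significant digits, an error of at most 5%, which touches 5.77% of values and 89.2% of all counts. The authors also deposited a normalized signal, CPM scaled by an edgeR factor and likewise rounded, and the scaling ratio of each library; both served alternatives only.

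Of 53801 genes, 20368 had a count in the 14 libraries and 9316 passed edgeR 4.0.16 filterByExpr (minimum count 10). Counts were scaled by TMM (factors 0.963 to 1.08) and fitted with limma 3.58.1 voom in R 4.3.3, with group and batch as terms. The study's methods name limma/voom, and the batch term was chosen here. Benjamini-Hochberg adjustment ran over all tested genes, at a threshold of 0.05. CPM are counts per 1000000 counts of the TMM-scaled library. Depth was 1.65 to 3.48 M counts per library. Bounds within a fold came from paired one-sided tests on the same fit. DNL919 values came from a fit of all 38 libraries. Genes were named by rule: the 8 of lowest p in each direction, a panel of 40 genes, and the gene of lowest p in each list. Car2, Cox7a2l, Tldc1, Ccl8, Ly6c2 and further list members named for their role were chosen after their values were seen. Some genes that the rule picks are not reported here. Alternatives were edgeR's quasi-likelihood test, DESeq2 1.42.0, limma-trend on log2(normalized value + 1), sample quality weights, other scalings, no filter or a stricter one, no batch term, sex for batch, all 38 libraries, each sex alone and each library left out. The code was tested on simulated data.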

Additional observations from a re-analysis of the deposited data

Results flagged for a closer look

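Within a group, a library was marked where its gap to the nearest other library was large for the group's range (Dixon's 95% limit), for 16 of 170 groups of values tested (9.41%). Chance marks about 1 in 20 groups, and genes of one library are not independent. In ATV:DNP02 replicate 1, Cx3cr1 stood high at 2300.5 CPM and the ribosomal protein share low at 1.21% of counts. In ATV:DNP02 replicate 2, the chemokine gene Ccl7 stood high at 398 CPM, the interferon-stimulated gene Ifit3 at 72.3 CPM and the replication gene Mcm6 at 18.1 CPM. In ATV:DNP02 replicate 3, H2-K1, a class I molecule, stood high at 672 CPM and Csf3r at 336 CPM, while the Fc receptor gene Fcgr3 stood low at 1765 CPM, against 2602 CPM in the nearest library. Ncoa4 stood high in ATV:DNP02 replicate 4, at 10.5 CPM. Among Vehicle libraries, Zmat1 stood high in replicate 3 at 24.8 CPM. Vehicle replicate 4 held the highest Trem2 (2548 CPM), Tmem119 (1398 CPM) and Rps6 (17.7 CPM) and the lowest mt-Nd2 (404 CPM). Vehicle replicate 6 held the lowest Tnf, at 66.6 CPM against 199 CPM in the nearest library, and the highest Ifi27l2a, at 111 CPM. Between the sexes no difference in response passed the test in limma-voom.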

How the results depend on the processing

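No call held under the main settings, and single calls arose under 4 kinds of alternative: 1 gene with DESeq2 (Car2, -4.63), 1 with no filter (Tldc1, 3.62, from 79 counts in ATV:DNP02 against 3 in Vehicle libraries), 1 in males alone (Ccl7, -3.41), and 0 to 1 on leaving out one library (Ccl8, Ccl7 or Mgl2). The count at an unadjusted p under 0.05 was 251 with edgeR, 898 with no filter and 354 to 678 without one library. Genes bounded within 2-fold numbered 8395 with no filter, 2428 in females, 1742 in males and 4269 to 5290 without one library. Within 1.5-fold there were 5 genes with all 38 libraries in the fit, 556 with no filter, 1305 with a stricter one, 296 without the batch term, 310 with sex in place of batch, 0 with limma-trend, 0 in females, 0 in males and 1 to 623 without one library. Intervals within 2-fold were 8768 with no filter, 3085 in females, 2615 in males and 4395 to 5148 without one library. The sex difference gave 1 call with DESeq2 (Ly6c2) and 0 to 0 without one library. Differences in library measures without one library ran from -0.0936 to 0.244 M for depth, -1.21 to -0.373 percentage points for the noncoding share, -0.696 to -0.216 for the mitochondrial share, 0.0716 to 0.125 for the ribosomal protein share and -46.8 to 193 for genes with a count. The sign turned, with a move of at least the SD between replicates, for Ifit3 with DESeq2 (-2.23), in males (-4.98) and without one library (-2.75 without Vehicle replicate 1, up to 0.81), for Fth1 (-0.16), Hmox1 (-0.23) and Lpl (2.09) in females, and for Ifi27l2a in males (-0.87). Ifit3 had the other sign in 9 of 27 alternatives, also with edgeR (-1.80), without the batch term (-1.62), with limma-trend (-1.54), with all 38 libraries (-0.50) and with no filter (-0.12), and Cd74 in 1 of 28, in females (0.15). Over 77 named genes, 117 of 2123 alternative values had the other sign and 44 genes kept theirs throughout, while the 3 other scalings turned 0 signs. The cause of these changes was not tested. Each library left out leaves fewer samples, and each sex alone has 7. No paired analysis was possible because the labels carry no replicate numbers, and batch is already a term.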
